A study of Mus musculus with 12 samples.

Results

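The type I interferon response genes described here are a set of transcripts that cells switch on when interferon alpha or beta is sensed, followed through the cells of mouse mammary tumours. The set was a list of 32 genes, and a gene was used if it was measured in the count tables. Of these, 30 were measured, among 19369 genes in the Total tables and 18574 in the CD45 tables. Mx1 and Mx2, the antiviral Mx GTPases, are not analysed here. The level of the set in a group of cells was the mean over the 30 genes of log2(CPM + 10), where CPM is the count of a gene per 1000000 unique molecular identifiers (UMIs, each standing for 1 captured RNA molecule) in the summed counts of that group, and every gene was also followed by itself.

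Tumours came from the mouse triple-negative breast cancer line 4T1, grown in the mammary fat pad of female BALB/c mice aged 9 to 11 weeks. Clones grown from single cells of 4T1, 5 in all (M, EM1, EM2, EM3 and E), span epithelial, intermediate and mesenchymal states, and each clone and the parental 4T1 line gave 1 tumour. All 6 tumours therefore share the cell line, the host strain and the site, no treatment is named, and a clone is a line from 1 cell seen in 1 animal. Every tumour gave 2 single-cell libraries, Total (all cells) and CD45 (leukocytes kept with magnetic beads), for 12 libraries in all. Differences between cell classes were tested over the 6 tumours, each of another clone, and differences between tumours were not tested because there was 1 tumour per clone.

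Type I interferons bind the receptor pair Ifnar1 and Ifnar2 on nearly all nucleated cells, and the kinases Jak1 and Tyk2 then phosphorylate transcription factors, Stat2 among them. Stat2 and Irf9 belong to a complex that enters the nucleus and binds the interferon-stimulated response element in the promoters of its target genes. In tumours, myeloid cells are known sources of and responders to interferon, and the response is known for its links to antigen presentation and T cell priming.

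The response element was looked for in the promoters of the set, and 6 of the promoters that hold a match are printed here. RefSeq promoters (assembly GRCm38.p6, the assembly that the build name mm10 stands for) were matched by symbol for 22 of the 30 genes. The genes not matched were Oas2, Usp18, Dhx58, Zbp1, Parp9, Parp14, Rtp4 and Ifi27l2a. The element was searched on both strands as a pair of GAAA runs with any 2 bases between them, from 250 bases before to 50 bases after the start of transcription. It was found in 11 of the 22 genes, Bst2, Ddx58, Eif2ak2, Ifih1, Ifit1, Ifit3, Isg15, Oas3, Rsad2, Stat2 and Trim30a, and in 3.44% of all 32851 promoters of that length, or 3.99% of the 27025 gene symbols they belong to. The gamma-activated site, an element of the response to interferon gamma, searched as TTCNNNGAA, was found in 4 of the 22 genes, Bst2, Eif2ak2, Ifi35 and Ifit2, and in 8.30% of all promoters, or 9.55% of symbols. The 2 motifs do not contain each other. No match to the response element was found in the promoters of Cmpk2, Dtx3l, Herc6, Ifi35, Ifi44, Ifit2, Irf7, Irf9, Oasl1, Oasl2 and Xaf1. Several of these genes also differ between the cell classes below. The sequences run 5′ to 3′ along the strand of the gene from 170 to 21 bases before the start, and capitals mark bases inside a match to the response element on either strand.
Isg15: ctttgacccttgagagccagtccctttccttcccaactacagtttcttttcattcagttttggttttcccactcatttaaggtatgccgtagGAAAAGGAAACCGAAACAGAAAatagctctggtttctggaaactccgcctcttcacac
Ifit1: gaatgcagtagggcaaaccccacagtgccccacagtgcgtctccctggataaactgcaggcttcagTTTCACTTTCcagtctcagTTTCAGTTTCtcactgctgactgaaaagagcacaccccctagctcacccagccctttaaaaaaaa
Ifit3: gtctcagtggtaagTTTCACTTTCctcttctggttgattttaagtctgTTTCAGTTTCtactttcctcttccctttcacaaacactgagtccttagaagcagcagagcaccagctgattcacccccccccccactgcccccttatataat
Rsad2: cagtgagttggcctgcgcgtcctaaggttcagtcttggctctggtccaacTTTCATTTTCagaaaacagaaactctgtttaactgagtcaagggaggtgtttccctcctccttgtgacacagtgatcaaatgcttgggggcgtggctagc
Oas3: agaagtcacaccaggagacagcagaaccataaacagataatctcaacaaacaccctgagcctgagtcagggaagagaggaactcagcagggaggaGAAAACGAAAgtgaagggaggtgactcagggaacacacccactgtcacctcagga
Bst2: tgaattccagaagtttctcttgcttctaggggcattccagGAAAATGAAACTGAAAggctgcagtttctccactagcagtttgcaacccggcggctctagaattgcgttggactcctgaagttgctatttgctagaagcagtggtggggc
Of these stretches, that of Isg15 lies at chr4:156200839-156200988 on the minus strand and holds 3 overlapping matches between 78 and 57 bases before the start. The Ifit1 stretch (chr19:34640719-34640868, plus strand) holds 2 matches, which begin 104 and 85 bases before the start. In Ifit3 (chr19:34583359-34583508, plus strand) the 2 matches begin 156 and 122 bases before the start. Rsad2 (chr12:26456473-26456622, minus strand) and Oas3 (chr5:120777680-120777829, minus strand) hold 1 match each, beginning 120 and 75 bases before the start. Bst2 (chr8:71537493-71537642, minus strand) holds 2 overlapping matches from 130 to 115 bases before the start. A match is a run of letters and was not tested as a bound site.

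Several of the genes lie side by side in the genome (GENCODE annotation, GRCm38). Ifit2, Ifit3 and Ifit1 occupy chr19:34550694-34650009, Rsad2 and Cmpk2 occupy chr12:26442746-26479837, and Parp14, Dtx3l and Parp9 occupy chr16:35832874-35972605. On chromosome 5, Oasl2 and Oasl1 lie at chr5:114896936-114937915 and Oas2 and Oas3 at chr5:120730333-120777661. Neighbours of 1 family share sequence, so reads of Ifit and Oas genes may in part have been split between relatives.

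The libraries held 6709 to 13467 cells and 28083101 to 122055131 UMIs each. Likely doublets, droplets with 2 cells, were removed (2135 of 115612 cells, 1.85%), which left 113477 cells. Cell classes are those of the authors' deposited annotation, which was made from expression in these same cells. The labels do not say which libraries were captured together, and the first, droplet part of the cell barcodes was compared between libraries: 14 pairs of libraries shared 12.2% to 19.1% of them, and the other 52 pairs 0.686% to 1.92%. The high pairs put E with EM3, EM1 with EM2, and the libraries of M and of the parental tumour only with the other library of the same tumour. If these groups reflect joint capture, which no label states, then EM3 against E and EM1 against EM2 lie within a group, while for M against E and 4T1 against M the group and the clone cannot be told apart. No full barcode was shared within a group, and up to 189 were shared by a pair of libraries from different groups.

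Granulocytes had the highest median level of the set among the broad classes in both kinds of library. Their median over the 6 tumours was 6.06 in the CD45 libraries, with the lowest tumour, parental 4T1, at 5.38 and the highest, EM1, at 6.26. T cells followed at 5.79 (5.66 to 5.86), then the class called other myeloid at 5.76 (5.38 to 5.86), macrophages at 5.61 (5.49 to 5.88) and dendritic cells at 5.59 (5.32 to 6.01). The ranges of these 5 classes overlap. Granulocytes were the highest class in 4 of the 6 CD45 libraries. In the parental tumour T cells (5.84) and macrophages (5.60) were above granulocytes (5.38), and in M dendritic cells (5.90) and macrophages (5.88) stood at the level of granulocytes (5.88) or above it. The mean of the set was not tested between neighbours in this order. NK cells (5.23) and B cells (5.14) had the lowest medians, in sums of as few as 58268 and 56861 UMIs. In the Total libraries the B cell class stood at 5.40 (5.17 to 5.65). Among the Total libraries, granulocytes stood at 5.90 (5.16 to 6.16), T and NK cells at 5.60, macrophages at 5.59, endothelial cells at 5.27, tumour cells at 4.92 (4.69 to 5.18) and fibroblasts at 4.68 (4.42 to 5.47). Granulocytes were the highest class in E, EM3 and EM1 there. In M macrophages (5.95) stood at the level of granulocytes (5.94), in EM2 the class called unknown (5.91) was above granulocytes (5.71), and in the parental tumour T and NK cells (5.54), the unknown class, macrophages (5.39), B cells and dendritic cells were all above them (5.16). The classes with few cells, such as NK cells (38 to 132 per library), have wide counting intervals.

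**Figure D1:**
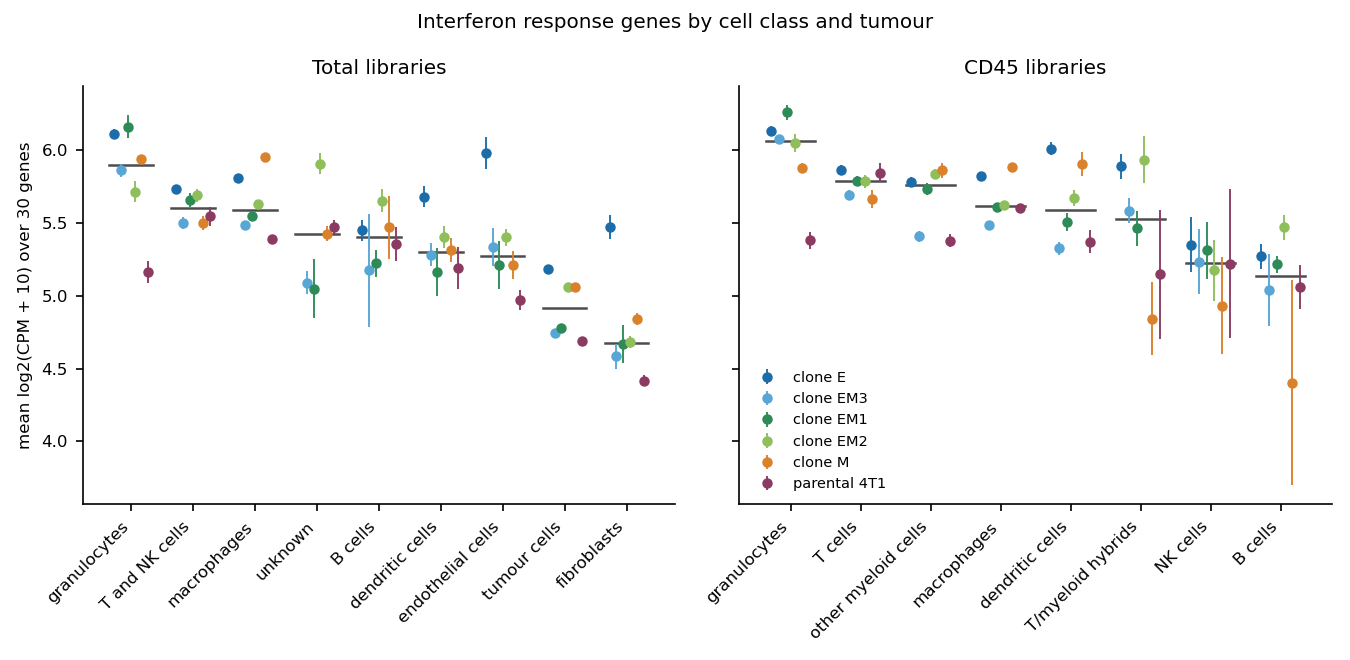
Mean log2(CPM + 10) over the 30 genes (vertical axis) for each broad class of the Total and CD45 libraries (horizontal axis, ordered by median). Points are tumours coloured by clone, bars are 95% intervals for counting error only, and grey lines are medians: granulocytes lead in both panels, with the parental tumour at 5.38 (CD45) and 5.16 (Total) far below the other tumours, and clone E stands high in endothelial cells (5.98) and fibroblasts (5.47).

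Single genes had different leading classes. Over every broad class, Isg15, Rsad2 and Oas3 were highest in granulocytes in all 6 tumours in both kinds of library. Oas2 and Rtp4 led there in all 6 Total libraries and in 5 of the 6 CD45 libraries. The T/Myeloid Hybrid class, of only 23 to 86 cells per library, led in the other. Oasl1, which restrains translation of Irf7, was highest in dendritic cells in all 6 tumours in both kinds of library. In the CD45 libraries Dtx3l led in T cells and Bst2 in the other myeloid class in all 6 tumours. Of that class, 316 cells with markers of plasmacytoid dendritic cells had Bst2 at 4724 to 8023 CPM and the rest at 333 to 633. In the same libraries Ifi44 led in the other myeloid class in 4 tumours and in macrophages in 2. In the Total libraries Bst2 was highest in the class called B cells and Xaf1 in endothelial cells in all 6 tumours. Over 101 class sums of at least 10 cells, the Pearson correlation of a gene with the mean of the other members ran from -0.08 for Bst2 to 0.70 for Isg15. These sums share tumours and libraries, and the correlation is given as a description.

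**Figure D2:**
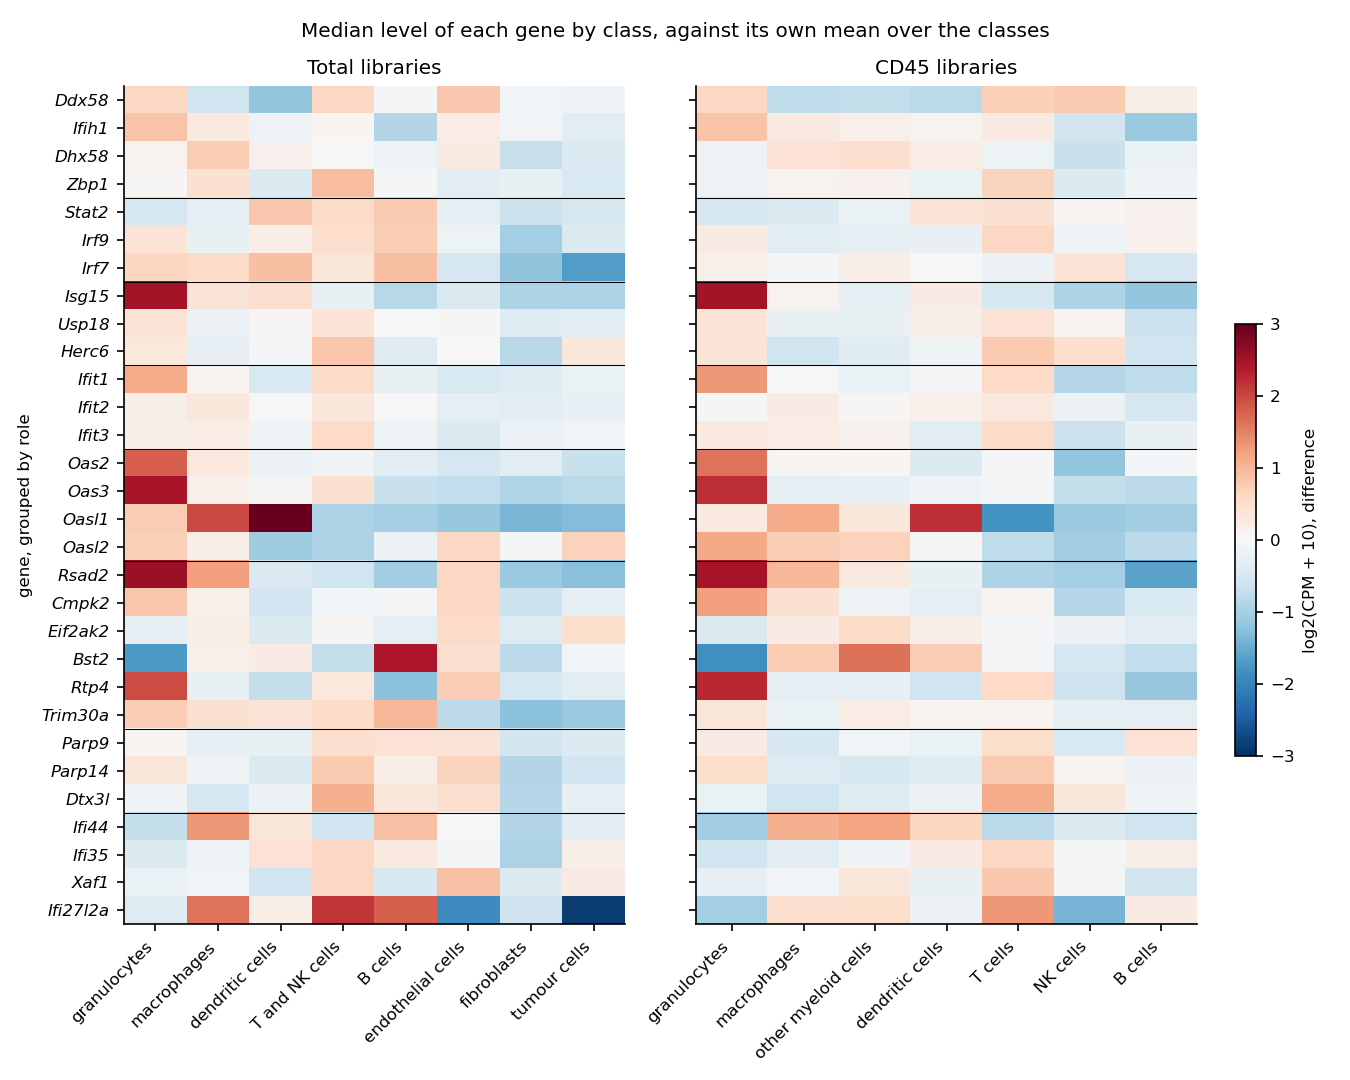
Median over the 6 tumours of log2(CPM + 10) for each of the 30 genes (rows, grouped by role) in each broad class (columns), as the difference from the gene's own mean over the classes shown. Red is above that mean and blue below, with values past the ends of the bar in the end colour: Isg15, Oas3, Rsad2, Oas2 and Rtp4 are red in granulocytes, Oasl1 in dendritic cells and Bst2 in the Total B cell class, while Ifi27l2a and Irf7 are blue in tumour cells.

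Granulocytes and macrophages of the CD45 libraries were compared first (n = 6 tumours, with the tumour as a block). Of the 30 genes, 22 were called higher in granulocytes at an adjusted p under 0.05 by edgeR's quasi-likelihood test with Benjamini-Hochberg adjustment, and 3 lower. Among all 10768 genes tested, 35.1% were called higher and 42.4% lower, so most genes were called in 1 direction or the other. The median log2 fold change was 1.44 over the members and -0.17 over all genes. With library totals in place of TMM, the scaling in edgeR that centres most genes near no change, the median of all genes moved to -0.99, the median of the members to 0.62 and the split of the members to 17 higher and 8 lower.

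Isg15, a ubiquitin-like protein joined to other proteins and also secreted, showed the contrast plainly. In CD45 granulocytes it stood at 945 CPM in E, 844 in EM3, 991 in EM1, 747 in EM2, 603 in M and 482 in 4T1. In the macrophages it was at 446, 142, 138, 155, 137 and 144 CPM, with the tumours in that order. Every granulocyte value was above every macrophage value, and the parental granulocytes came closest to the macrophages of E. The log2 fold change was 2.94 ± 0.22 (SE; adjusted p = 1.7e-08). Usp18, which removes Isg15 from proteins and damps receptor signalling, was 1.76 ± 0.20 higher on the log2 scale, and Herc6, the ligase that attaches Isg15 in the mouse, 2.12 ± 0.22.

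All of the 3 transcription factors were called higher in granulocytes. Irf9 had a log2 fold change of 1.46 ± 0.11, Irf7, which amplifies interferon production, 1.00 ± 0.21, and Stat2 0.60 ± 0.17. With library totals the calls of Irf7 (0.18) and Stat2 (-0.22) were lost. Of the 4 sensors of foreign nucleic acid, 3 were called higher: Ddx58 (RIG-I) at 2.63 ± 0.16, Ifih1 (MDA5) at 1.65 ± 0.17 and Zbp1 at 0.58 ± 0.19. The call of Zbp1 was lost with library totals (-0.25), without the tumour block and without EM1. Dhx58 (LGP2), which modulates the other RNA sensors, was at 0.07 ± 0.15 and was not called.

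The oligoadenylate synthetases Oas2 and Oas3 make short oligoadenylates when they bind double-stranded RNA. Oas3 stood at 135, 133, 178, 137, 129 and 87.5 CPM in granulocytes of E, EM3, EM1, EM2, M and 4T1, and at 26.6, 13.5, 8.65, 15.8, 18.3 and 14.5 CPM in macrophages. The 2 classes do not overlap, and the fold change of Oas3 (3.89 ± 0.23) was the largest among the members in this comparison. Oas2 was at 2.68 ± 0.18 and Oasl2 at 1.38 ± 0.18, while Oasl1 (-0.19 ± 0.13) was not called. Among the Ifit proteins, which bind viral RNA, Ifit1 was higher by 2.69 ± 0.25 and Ifit3 by 0.84 ± 0.31. The call of Ifit3 was lost with library totals (0.02), without the tumour block, and without EM3, EM1 or EM2. Ifit2 was at 0.22 ± 0.26 and was not called.

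Rsad2 (viperin), an enzyme that makes a chain-terminating nucleotide, stood at 227 CPM in granulocytes of E, 451 in EM3, 330 in EM1, 352 in EM2, 255 in M and 123 in the parental tumour. Its macrophage levels were 91.7, 103, 96.7, 81.8, 168 and 99.9 CPM. The classes overlap across tumours for Rsad2, since the granulocytes of 4T1 fall below the macrophages of M, but within every tumour the granulocytes were higher. The fold change was 2.21 ± 0.22, and Cmpk2, the nucleotide kinase gene next to Rsad2, was at 1.84 ± 0.25. Rtp4, which chaperones receptors, was at 3.64 ± 0.18 and Trim30a, a tripartite motif protein, at 1.60 ± 0.12. The ADP-ribosyltransferase genes Parp14 (1.77 ± 0.17) and Parp9 (1.72 ± 0.12) and Dtx3l (1.43 ± 0.14), the ubiquitin ligase that pairs with Parp9, were all called higher.

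The genes that went the other way were Ifi44 (-2.43 ± 0.19), Bst2 (-1.71 ± 0.11) and Ifi27l2a (-0.80 ± 0.18). Bst2 (tetherin), which holds budding virus at the cell surface, stood at 54.9 to 125 CPM in granulocytes and at 310 to 557 CPM in macrophages. The ranges do not overlap. Under the alternatives run for this comparison (DESeq2, no filter, no replicate block, all cells kept, each tumour left out and library totals), 17 of the 22 higher calls and all 3 lower calls were kept. Macrophage markers summed to 1498 to 2447 CPM in granulocytes, against 8791 to 14512 in macrophages, and granulocyte markers summed to 675 to 1697 CPM in macrophages, against 135477 to 204949 in granulocytes. Their part in the fold changes was not tested.

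**Figure D3:**
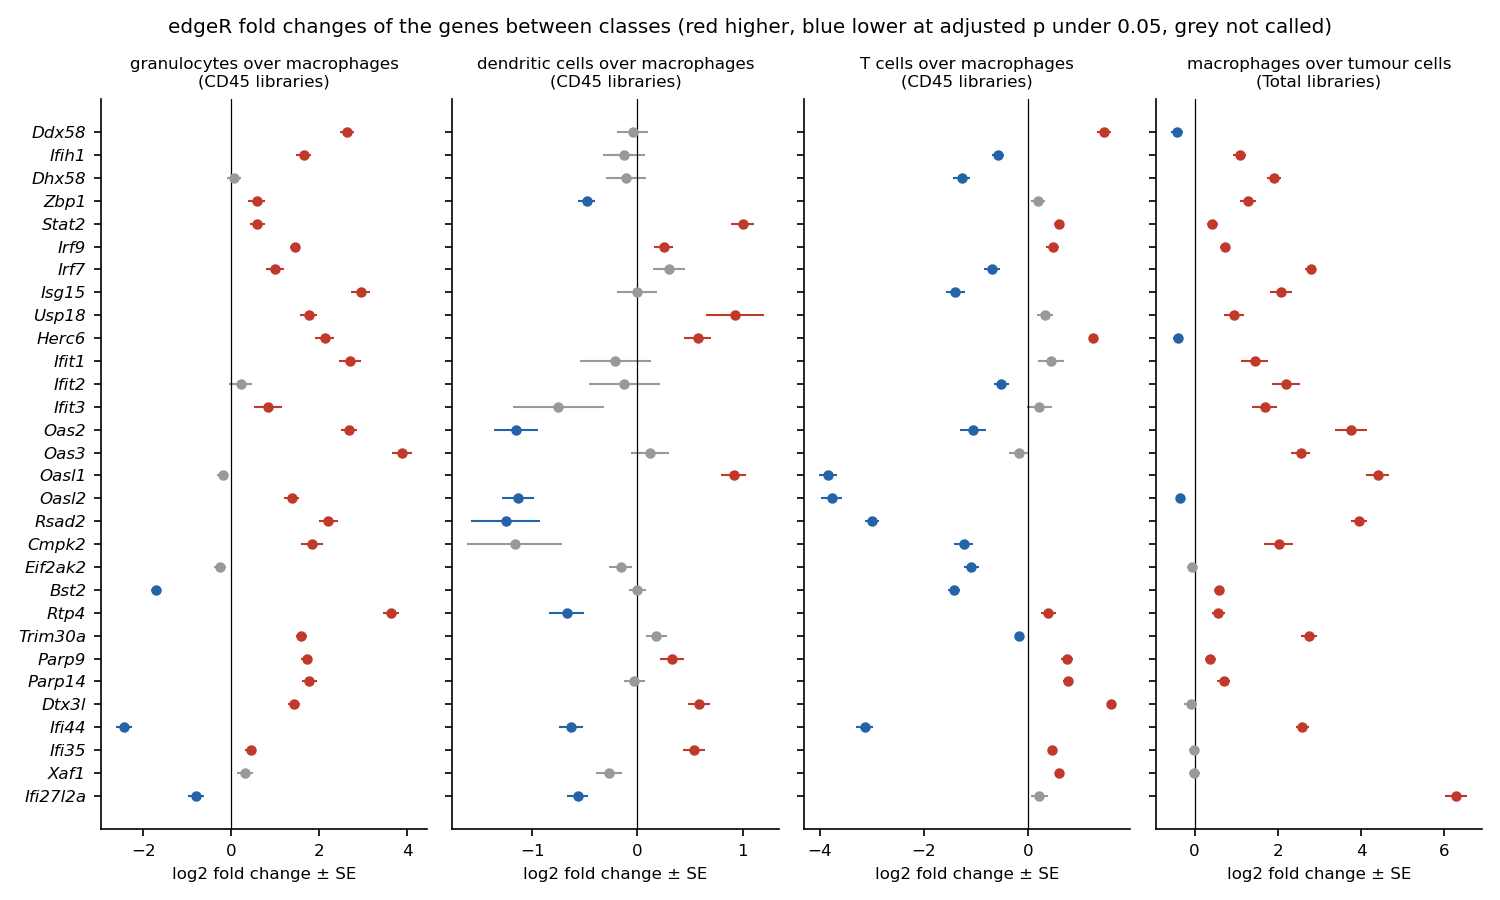
edgeR log2 fold change with its standard error for each of the 30 genes (rows) in 4 comparisons of classes over the 6 tumours. Red points were called higher and blue points lower at an adjusted p under 0.05, and grey points were not called: most points are red for granulocytes over macrophages (22 of 30) and for macrophages over tumour cells (23 of 30), while dendritic cells (8 red, 7 blue) and T cells (10 red, 14 blue) are mixed.

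T cells were compared with macrophages next. Of the 30 genes, 10 were called higher in T cells and 14 lower, against 38.8% and 39.8% of 11222 genes, and the median was at 0.00 over the members and over all genes. With library totals the split was 16 higher and 9 lower, with medians of 0.57 over the members and 0.57 over all genes. This comparison and that of dendritic cells use the same macrophage sums as the one above. Higher in T cells were Dtx3l (1.59 ± 0.08), Ddx58 (1.45 ± 0.13), Herc6 (1.25 ± 0.08), Parp14 (0.75 ± 0.09), Parp9 (0.74 ± 0.11), Xaf1 (0.59 ± 0.09), Stat2 (0.59 ± 0.09), Irf9 (0.47 ± 0.13), Ifi35 (0.46 ± 0.08) and Rtp4 (0.38 ± 0.14). All 3 ADP-ribosylation genes were in this group. Lower were Oasl1 (-3.84 ± 0.17), Oasl2 (-3.76 ± 0.20), Ifi44 (-3.13 ± 0.17), Rsad2 (-3.0 ± 0.13), Bst2 (-1.42 ± 0.12), Isg15 (-1.40 ± 0.19) and 8 others. Rsad2 stood at 12.0 to 27.6 CPM in T cells and at 81.8 to 168 in macrophages. Those ranges are apart. The calls of Rtp4 and Trim30a were kept in 4 of 11 alternatives each. For Trim30a and Ifit2 the direction turned with library totals, to 0.39 and 0.06.

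Dendritic cells were close to macrophages in the median of the set (-0.08, against -0.04 over all genes). The test called 8 members higher and 7 lower, against 22.6% and 25.5% of 10764 genes. Oasl1 in dendritic cells stood at 797 CPM in E, 496 in EM3, 482 in EM1, 409 in EM2, 571 in M and 234 in the parental tumour, and in macrophages at 382, 196, 226, 226, 274 and 192. In each tumour the dendritic cells were higher, with a log2 fold change of 0.92 ± 0.12 (adjusted p = 6.2e-05). Stat2 (1.00 ± 0.11), Usp18 (0.93 ± 0.27), Dtx3l (0.58 ± 0.10), Herc6 (0.57 ± 0.13), Ifi35 (0.53 ± 0.11), Parp9 (0.33 ± 0.11) and Irf9 (0.25 ± 0.09) were also called higher. Rsad2 (-1.25 ± 0.33), Oas2 (-1.16 ± 0.21), Oasl2 (-1.13 ± 0.15), Rtp4 (-0.67 ± 0.17), Ifi44 (-0.63 ± 0.11), Ifi27l2a (-0.57 ± 0.10) and Zbp1 (-0.48 ± 0.08) were called lower. The call of Irf9 was kept in 4 of 11 alternatives and that of Parp9 in 7 of 11. Without clone E 5 members were called higher. Macrophage markers summed to 1844 to 7094 CPM in the dendritic cell class, and their part in these values was not tested.

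Macrophages carried more of the set than the tumour cells of the same Total libraries. The count was 23 higher and 3 lower of 30, against 37.8% and 37.8% of 14051 genes, with a median member at 1.19 and a median gene at -0.01. With library totals the split was 17 and 7, with medians of 0.84 and -0.35. Ifi27l2a, an interferon-induced mitochondrial protein, stood at 18.2 CPM in tumour cells of E, 3.94 in EM3, 2.14 in EM1, 3.61 in EM2, 3.46 in M and 4.95 in 4T1, and at 183 to 425 CPM in macrophages. Its fold change of 6.28 ± 0.27 was the largest of the members. Oasl1 (4.4 ± 0.27), Rsad2 (3.96 ± 0.19), Oas2 (3.75 ± 0.38), Irf7 (2.79 ± 0.14), Trim30a (2.75 ± 0.20), Ifi44 (2.59 ± 0.16), Oas3 (2.55 ± 0.23), Ifit2 (2.20 ± 0.33), Isg15 (2.08 ± 0.26) and Cmpk2 (2.02 ± 0.35) followed.

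Dhx58 (1.91 ± 0.17), Ifit3 (1.69 ± 0.30), Ifit1 (1.44 ± 0.32), Zbp1 (1.29 ± 0.19) and Ifih1 (1.09 ± 0.16) were also called higher, and all 5 calls were kept in all 11 alternatives. Usp18 (0.94 ± 0.24), Irf9, Parp14, Rtp4, Stat2 and Parp9 were called higher by less than 1 on the log2 scale, and of these the call of Irf9 alone was kept in every alternative. Ddx58 (-0.42 ± 0.15), Herc6 (-0.40 ± 0.13) and Oasl2 (-0.36 ± 0.10) were called lower in macrophages, and none of these 3 calls was kept in every alternative. Without EM3 or without the parental tumour only 1 of them was called. Xaf1 (-0.01 ± 0.13), Ifi35 (-0.01 ± 0.11), Eif2ak2 (PKR, the kinase that stops translation on double-stranded RNA; -0.06 ± 0.13) and Dtx3l (-0.10 ± 0.16) were not called. Bst2 stood at 268 to 448 CPM in tumour cells and at 345 to 503 in macrophages, ranges that overlap across tumours, although it was called higher in macrophages (0.59 ± 0.12).

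Fibroblasts and tumour cells differed in few members. The test called 6 higher in fibroblasts and 5 lower, against 26.6% and 30% of 11523 genes, with a median member at 0.04 and a median gene at -0.11. With library totals the split was 3 and 14, with medians of -0.46 and -0.60, and with no low-count filter 3 and 10. Ifi27l2a (3.98 ± 0.40), Oas2 (2.11 ± 0.54), Irf7 (1.05 ± 0.16), Zbp1 (0.81 ± 0.20), Ifih1 (0.77 ± 0.23) and Ddx58 (0.52 ± 0.19) were called higher. Ifi35 (-0.90 ± 0.12), Herc6, Eif2ak2, Dtx3l and Oasl2 were called lower. The calls of Ifi27l2a, Oas2, Irf7 and Ifi35 were kept in every alternative. Lower calls among the members were 3 or fewer without EM3, EM1, EM2, M or 4T1, and 6 without E. Fibroblast sums held 52 to 261 cells.

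The same class was also compared between the 2 libraries of a tumour. In granulocytes 18 of 30 genes were called higher in the CD45 library and 1, Bst2, lower, against 27.0% and 29.2% of 8291 genes, and the median member was at 0.43 (0.00 over all genes). Isg15 was at 0.69 ± 0.09, Rtp4 at 0.69 ± 0.08 and Ifi27l2a at 0.90 ± 0.13. In macrophages 10 were called higher and 0 lower, against 22.1% and 19.2% of 12215 genes, with a median of 0.16 (0.02 over all genes). With library totals the splits were 8 and 2 for granulocytes, with medians of 0.14 over the members and -0.30 over all genes, and 4 and 3 for macrophages, with medians of 0.03 and -0.12. Without the tumour block the higher calls were 6 in granulocytes and 0 in macrophages. Kept in every alternative were 6 of the 18 higher calls in granulocytes and 0 of the 10 in macrophages. Tumour cell markers summed to 406 to 1828 CPM in granulocytes of the Total libraries and 15 to 42.7 CPM in those of the CD45 libraries, and their part in the difference was not tested.

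Within the T cells, the subtype annotation separates Cd8 cells marked by Lef1, a factor of naive and early memory T cells, from those marked by Gzmb, the cytotoxic protease granzyme B. These 2 subtypes were set side by side after their levels had been seen, so no test is given. By median over tumours, the mean of the set was highest among all subtypes in the Lef1+ cells, at 6.20 (5.70 to 6.50). The Cd44- Cd4+ T cells came next at 5.95 (5.45 to 6.13), a range that overlaps. In EM2 the Lef1+ cells (5.70) were below the T/Myeloid Hybrid2 cells (6.10) and the cells called NK by subtype (5.86). The Gzmb+ cells were lower at 5.34 (5.28 to 5.60, 5 tumours, since the parental tumour had 8 such cells). Irf7 stood at 284 CPM in Lef1+ cells of E, 164 in EM3, 241 in EM1, 224 in EM2 and 395 in M, and at 98.2, 67.0, 68.7, 82.1 and 123 in the Gzmb+ cells. Zbp1 stood at 301, 269, 307, 207 and 140 CPM against 95, 51.5, 123, 107 and 123. Both genes were higher in the Lef1+ cells of each tumour, with a small gap for Zbp1 in M. Of the 30 genes, 14 were higher in the Lef1+ cells in each of the 5 tumours, against 6.34% of the 13599 genes with a UMI in either subtype, and 0 were lower in each, against 6.97%. Of the 27 with a mean of at least 10 CPM over these sums, 14 were higher and 0 lower in each, against 9.77% and 10.1% of 8488 genes. The Lef1+ sums held 26 to 496 cells and the Gzmb+ sums used 5 of the 6 tumours.

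A group of cells with very high Bst2 has no class name of its own, and was picked out after its levels had been seen. In the CD45 libraries, 316 cells that the broad annotation puts among other myeloid cells are called NK in the subtype annotation, 14 to 97 per tumour. Their markers of plasmacytoid dendritic cells (a list of Siglech, Tcf4, Ccr9, Klk1 and Cox6a2), the cells known for strong interferon alpha production, summed to 8141 to 10791 CPM. The other NK cells held 51.6 to 169 CPM of these markers, and the NK markers stood at 0 to 20.9 CPM in the 316 cells against 888 to 2175 in the other NK cells. The NK name of these cells therefore goes against their markers. Bst2 in them was at 6413 CPM in E, 4724 in EM3, 6362 in EM1, 7034 in EM2, 5844 in M and 8023 in the parental tumour, against 41.3 to 303 CPM in the other NK cells and 333 to 633 in the rest of the other myeloid cells. Irf7 was at 262 to 1118 CPM and Stat2 at 119 to 224, against 155 to 395 and 17.5 to 68.6 in the other NK cells. Rsad2 (0 to 23.8 CPM) and Rtp4 (0 to 7.9 CPM) were low there. Only 2 UMIs of type I or III interferon genes were counted in all 316 cells.

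The Total B cell class held the same kind of signal. Bst2 stood there at 1855 CPM in E, 3713 in EM3, 1041 in EM1, 2029 in EM2, 2934 in M and 2238 in the parental tumour, above every other broad class. Plasmacytoid dendritic cell markers in that class summed to 2663, 5645, 1251, 2666, 4160 and 2984 CPM, with EM1 lowest and EM3 highest as for Bst2. In B cells of the CD45 libraries those markers summed to 147 to 229 CPM. Their part in the Bst2 level was not tested.

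Levels also differed between tumours, each measured in 1 animal. In CD45 macrophages E was highest for 14 of the 29 members with a mean of at least 10 CPM, against 13.9% of 7774 genes, and in Total macrophages for 12 of 29, against 18.4% of 8179. Isg15 was at 446 CPM (counting interval 439 to 453) in CD45 macrophages of E and at 137 to 155 in the other 5, and in the Total libraries at 323 against 106 to 149. Irf7 was at 272 CPM in E, 98.1 in EM3, 91.0 in EM1, 152 in EM2, 174 in M and 147 in the parental tumour, and Ifi27l2a at 486, 201, 198, 290, 367 and 380. E is the highest tumour for each of the 3 genes, and EM3, which shares droplet barcodes with E, is among the 2 lowest for Irf7 and Ifi27l2a. Granulocyte markers summed to 1272 CPM in CD45 macrophages of E and to 675 to 1697 over the 6 tumours, and their part in these levels was not tested. The mean of the set in EM3 less that in E was -0.33 (counting interval -0.35 to -0.32). Isg15, Irf7 and Ifi27l2a were the 3 of 23 members at 20 CPM or more that were at least 2-fold lower in EM3 on the CPM + 10 scale, and 0 were 2-fold higher, against 0.444% and 0.413% of 6300 genes. In the Total macrophages the same 3 genes were 2-fold lower and 0 higher, against 1.22% and 1.08% of 6652 genes.

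In macrophages M was highest for 9 of the 29 members in the CD45 libraries, against 43.6% of 7774 genes, and for 13 of 29 in the Total libraries, against 31.7% of 8179. Ifit1 was at 21.8 CPM in CD45 macrophages of M and at 5.74 in E, 6.56 in EM3, 8.11 in EM1, 7.70 in EM2 and 10.5 in the parental tumour. Rsad2 (168 CPM against 81.8 to 103), Usp18 (19.2 against 7.69 to 13.0), Irf9 (61.8 against 36.6 to 46.2) and Rtp4 (40.0 against 17.4 to 25.7) were also highest in M. In Total macrophages Cmpk2 was at 44.2 CPM in M and at 5.93 to 18.2 in the others, and Ifit2 and Ifit3 were again highest in M. M less E was 0.06 (0.04 to 0.08) for the mean of the set in the CD45 libraries, with Ifit1 2-fold higher and Isg15 2-fold lower of 26 members, against 2.6% and 2.47% of 6723 genes. Over those 6723 genes, at 20 CPM or more, the median difference was 0.20, and over the 26 members it was -0.03. In the Total macrophages Ifit1, Ifit2 and Cmpk2 were 2-fold higher in M than in E and Isg15 2-fold lower, against 2.92% and 2.86% of 7051 genes, with medians of 0.19 over the genes and 0.04 over the members. With every cell thinned to 500 UMIs the sign of the mean in the CD45 libraries turned (-0.0073). EM1 less EM2 was -0.01 (-0.03 to 0.01) with 0 members past 2-fold in either direction, against 0.141% higher and 0.235% lower of 6392 genes. 4T1 less M was -0.28 (-0.30 to -0.26), with 0 members past 2-fold in either direction, against 0.583% and 0.433% of 6690 genes. In the Total macrophages 4T1 less M was -0.56 (-0.58 to -0.54), with Ifit1, Ifit2, Rsad2 and Cmpk2 2-fold lower and 0 higher of 26, against 0.581% and 0.737% of 7059 genes.

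**Figure D4:**
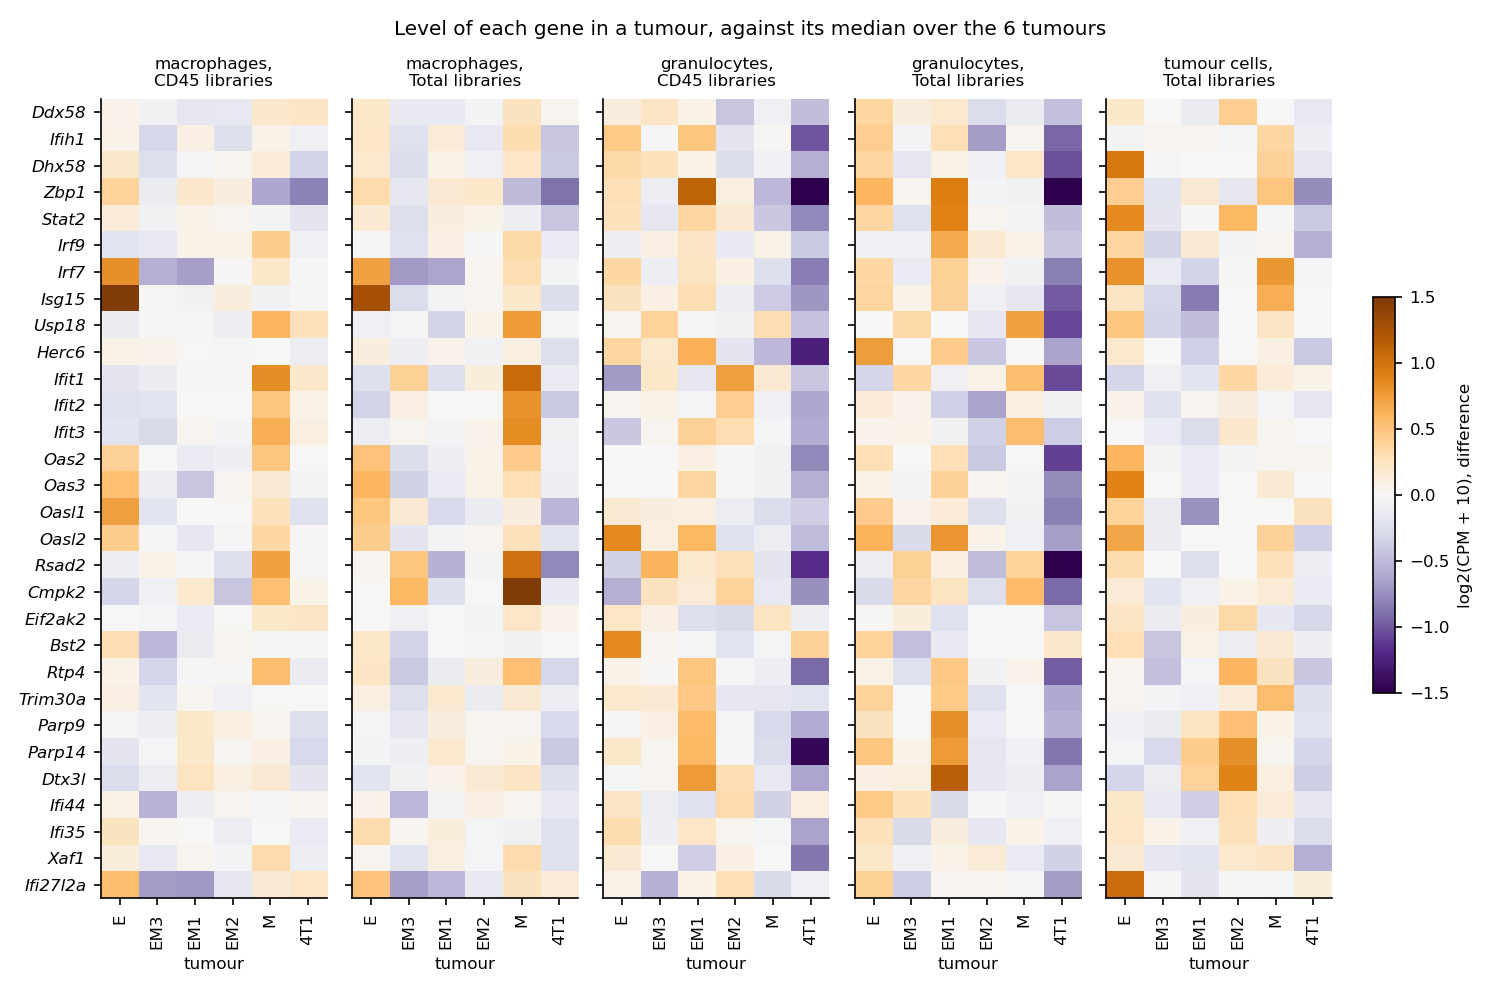
Level of each of the 30 genes (rows) in each tumour (columns) as log2(CPM + 10) less its median over the 6 tumours, for macrophages and granulocytes of both kinds of library and for tumour cells. Orange is above the median and purple below, with values past the bar in the end colour: the parental column of both granulocyte panels is purple for nearly all genes, Isg15 is orange in macrophages of E, and the Ifit genes, Rsad2 and Cmpk2 in Total macrophages of M.

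Granulocytes of the parental tumour were lowest for 25 of 30 genes in the CD45 libraries and for 26 of 30 in the Total libraries. Among genes with a mean of at least 10 CPM there, they were lowest for 23 of 27 members, against 11.3% of 6175 genes, and in the Total libraries for 25 of 27, against 14.9% of 7761. Parp14 stood at 129 CPM in E, 113 in EM3, 171 in EM1, 108 in EM2, 89.9 in M and 34.3 in 4T1, and Zbp1 at 100.0, 74.5, 184, 86.8, 53.8 and 18.9. For both genes 4T1 lies well below the rest and EM1 is highest. EM1 was the highest tumour for 14 of 30 genes in the CD45 libraries (13 of 27 at that mean, against 7.29% of the 6175 genes), and no gene was highest in 4T1. The mean of the set in 4T1 less M was -0.50 (-0.56 to -0.43), with Ifih1, Zbp1 and Parp14 2-fold lower and 0 genes higher of 23, against 0.945% and 2.26% of 5082 genes. In Total granulocytes the difference was -0.77 (-0.85 to -0.69), with 7 of 24 members 2-fold lower (Ifit1, Rsad2, Oas2, Usp18, Zbp1, Cmpk2 and Rtp4), against 1.72% of 6686 genes. At a mean of at least 10 CPM, 4T1 was also lowest for 14 of 20 members in tumour cells, against 12.1% of 8937 genes. The counts were 14 of 29 in Total macrophages (7.86% of genes), 13 of 27 in the other myeloid class (11.2%) and 9 of 20 in fibroblasts (10.2%). They were 8 of 29 in CD45 macrophages (8.07%) and 2 of 27 in CD45 T cells (26.6%).

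The median depth of CD45 granulocytes was 690 UMIs per cell in 4T1, 690 in EM2, 739 in EM1 and up to 1220 in the others, and with every cell thinned to 500 UMIs 4T1 less M was -0.46. The deposited cells had at least 650 genes in the Total library of 4T1 and at least 200 to 550 in the others. With cells of at least 650 genes 4T1 less M in the CD45 libraries was -0.956, from 197 of 1669 granulocytes of 4T1 and 1149 of 3791 of M, and EM1 less EM2 was 0.367, from 200 of 1400 and 121 of 1065. In the other comparisons of granulocytes EM3 less E was -0.06 (-0.10 to -0.02) with 0 members past 2-fold, against 0.281% higher and 0.421% lower of 4986 genes. M less E was -0.26 (-0.30 to -0.21) with 0 past 2-fold, against 0.755% and 3.0% of 5035 genes. EM1 less EM2 was 0.21 (0.13 to 0.29) with Zbp1 2-fold higher, against 0.437% of 4573 genes. In Total granulocytes 0 members were past 2-fold in EM3 less E, against 1.34% higher and 1.02% lower of 6054 genes, and 0 in M less E, against 2.09% and 2.27% of 6178 genes. EM1 less EM2 was 0.44 (0.34 to 0.55) there, with Dtx3l 2-fold higher and 0 lower of 25, against 1.46% and 1.48% of 6227 genes. The differences EM3 less E and M less E share the tumour E, and M less E and 4T1 less M share M.

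Tumour cells had the set at 5.18 in E, 5.06 in EM2, 5.06 in M, 4.78 in EM1, 4.74 in EM3 and 4.69 in 4T1. E was highest for 13 of 30 genes, EM2 for 11 and M for 6. Of the 20 members with a mean of at least 10 CPM, E was highest for 8, EM2 for 8 and M for 4, against 28.2%, 15.7% and 27.8% of 8937 genes. Stat2 (45.9 CPM in E, 13.5 to 36.7 in the others), Dhx58 (24.5 against 5.75 to 13.4), Oas3 (13.2 against 1.40 to 3.84) and Ifi27l2a (18.2 against 2.14 to 4.95) were highest in E. Dtx3l (73.8 CPM in EM2, 25.0 to 49.5 in the others), Parp14 (79.7 against 30.6 to 59.0), Rtp4 (36.5 against 12.1 to 26.5) and Ddx58 (34.8 against 19.9 to 28.3) were highest in EM2. Isg15 was highest in M, at 76.9 CPM against 20.6 to 55.3. Granulocyte markers summed to 1253 CPM in tumour cells of E and to 170 to 679 in the other tumours, and macrophage markers to 310 and to 57.5 to 208. In EM2 these sums were 205 and 75.7 CPM. The part of such RNA in the values of E was not tested. EM3 less E was -0.44 (-0.47 to -0.41) with Stat2 2-fold lower and 0 higher of 18, against 7.41% and 3.22% of 8042 genes, and EM1 less EM2 was -0.29 (-0.30 to -0.27) with 0 members 2-fold lower and 0 higher of 15, against 1.15% and 1.74% of 7711 genes. M less E was -0.12 (-0.15 to -0.09) with 0 past 2-fold, against 5.44% higher and 8.48% lower of 8195 genes. 4T1 less M was -0.38 (-0.39 to -0.36) with Zbp1 2-fold lower and 0 higher, against 2.27% and 1.93% of 7715 genes. With a pseudocount of 1 in place of 10 these differences were -0.729 (EM3 less E), -0.534 (EM1 less EM2), -0.204 (M less E) and -0.566 (4T1 less M).

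Stromal cells of clone E were high as well. In fibroblasts 26 of the 30 genes were highest in E, and in endothelial cells 17. At a mean of at least 10 CPM the counts were 17 of 20 in fibroblasts, against 34.7% of 8834 genes, and 14 of 25 in endothelial cells, against 21.2% of 8987. Isg15 in fibroblasts was at 169 CPM in E (118 UMIs, counting interval 140 to 202), 22.4 in EM3, 44.0 in EM1, 45.1 in EM2, 68.9 in M and 33.3 in 4T1. In endothelial cells Irf7 was at 204 CPM in E, 75.0 in EM3, 50.4 in EM1, 64.2 in EM2, 50.1 in M and 31.4 in 4T1. E is above all other tumours for both. The sums of E hold 135 fibroblasts and 68 endothelial cells. Granulocyte markers were at 2281 CPM in fibroblasts of E against 61.6 to 1132 in the others, and at 4057 in endothelial cells of E against 87.1 to 2605. Their part in these levels was not tested.

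Cells of 1 class differed in how much of the set they held. Each cell of at least 500 UMIs was thinned to 500 UMIs, so that depth was equal. The Fano factor of the summed member counts, their variance divided by their mean (1 for independent counting), was 4.06 to 8.28 in CD45 granulocytes, 2.58 to 4.70 in CD45 macrophages, 1.80 to 2.58 in CD45 T cells and 1.38 to 2.09 in tumour cells. In CD45 dendritic cells it was 1.68 to 7.25. In the Total libraries, from which the tumour cells come, it was 2.70 to 6.34 in granulocytes, 1.85 to 4.85 in macrophages and 1.69 to 3.02 in T and NK cells. The 10% of cells with the most member UMIs held 44.5% to 60.6% of them in granulocytes and 38.7% to 52.2% in macrophages. In tumour cells, with 0.415 to 0.611 member UMIs per cell after thinning, that share was 45.9% to 54.1%, so it does not follow the order of the Fano factors. Both measures depend on the mean count, which differed between classes. Its median was 1.58 member UMIs in CD45 granulocytes, 1.04 in CD45 macrophages, 1.21 in CD45 T cells and 0.53 in tumour cells. The classes are therefore not ranked by spread here. A cell with any member UMI was common, at 41.5% to 63.7% of granulocytes and 43.4% to 66.3% of macrophages after thinning, and at 53.5% to 80.9% and 95.1% to 98.7% before it, when the median depths were 690 to 1220 and 5134 to 7676 UMIs.

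Macrophages and granulocytes with an Rsad2 UMI more often had an Isg15 UMI. Among CD45 macrophages with an Rsad2 UMI, 29.1% to 44.4% also had an Isg15 UMI, against 3.94% to 14.9% of those without. In granulocytes the shares were 50% to 59.7% and 14.7% to 28.4%. The 2 ranges do not overlap in either class, and the share was higher with Rsad2 in all 6 tumours. Ifit1 was found in 1.25% to 20.8% of macrophages with an Rsad2 UMI and in 0.04% to 0.33% of those without, with as few as 1 cell holding both. For tumour cells without an Rsad2 UMI the Isg15 share was 1.12% to 3.27%, at the same 500 UMIs, and with one it was 0% to 58.3%, with 0 cells holding both in the lowest tumour. It was also 0% at the lowest in CD45 T cells (up to 36.8%) and CD45 dendritic cells (up to 100%) with an Rsad2 UMI. For Bst2 the gap was smaller: 19.7% to 32.3% of macrophages with Isg15 had a Bst2 UMI, and 12.7% to 19.2% of those without.

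**Figure D5:**
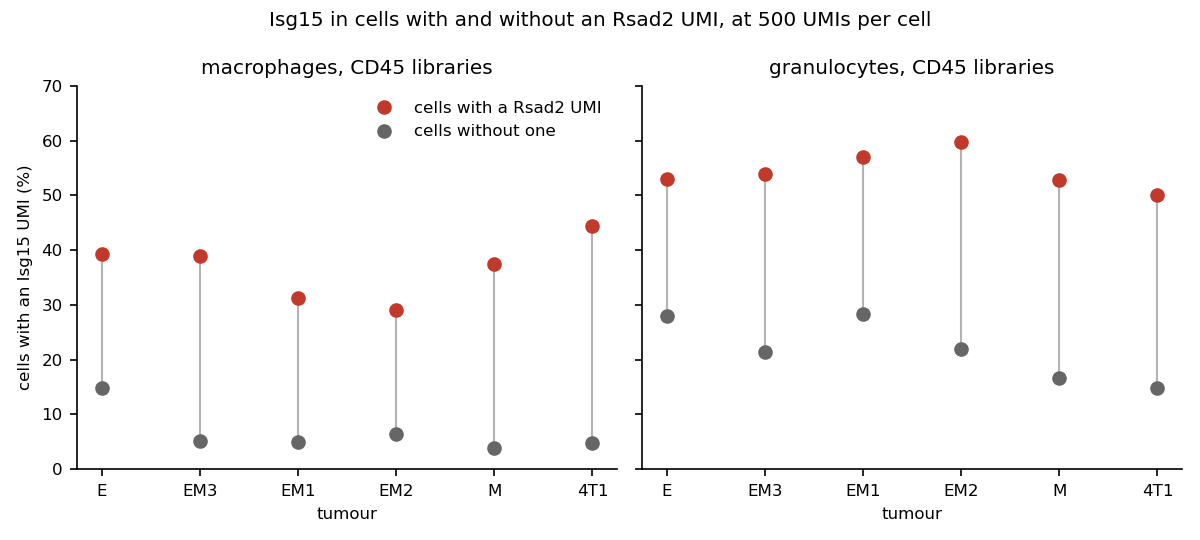
Share of cells with an Isg15 UMI (vertical axis, percent) among CD45 macrophages and granulocytes with (red) and without (grey) an Rsad2 UMI, each cell thinned to 500 UMIs, for each tumour (horizontal axis). The red points lie at 29.1% to 44.4% in macrophages and 50% to 59.7% in granulocytes, above the grey point of the same tumour in all 12 pairs of points.

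The other genes of the pathway were followed as a list of 49, of which 45 were measured in the Total and 43 in the CD45 tables. The ligands of types I and III were near the floor in the median tumour of each broad class. The summed level of the 16 measured in the CD45 libraries had a median of 0 to 2.56 CPM over the broad classes, and that of the 18 measured in the Total libraries 6.16 to 11.5 CPM. Every Total median was thus above every CD45 median, and the cause was not tested. Single tumours reached 73.9 CPM in tumour cells, 39.7 in granulocytes, 38.8 in B cells and 34.0 in endothelial cells of the Total libraries. The highest sum in the CD45 libraries was 17.6 CPM, in B cells. Total granulocytes held 205 ligand UMIs, of which Ifne gave 0 to 10 and Ifnb1 0 to 2 per tumour. Other ligands, not named here, gave most ligand UMIs in Total granulocytes, macrophages and tumour cells and in CD45 macrophages. Ifne, a type I interferon known from epithelia, stood at 56.7 CPM in tumour cells of E (296 UMIs in 164 of 777 cells). In tumour cells of the others it was at 6.71 in EM3, 4.10 in EM1, 1.44 in EM2, 0.99 in M and 1.48 in 4T1. In the macrophages of that library Ifne had 12 UMIs in 3848 cells. Ifnb1 gave 51 UMIs in CD45 macrophages of M, but in 5 cells, with 41 of them in 1 cell, and 0 to 8 UMIs in the other CD45 macrophages. In Total macrophages it gave 22 UMIs in 16 cells of E, 26 in 9 of EM3, 0 in EM1, 8 in 7 of EM2, 16 in 12 of M and 5 in 4 of 4T1.

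The receptor chains were present in every broad class. Medians of Ifnar1 ran from 80.2 CPM in fibroblasts to 479 in the Total B cell class, and those of Ifnar2 from 94.8 in tumour cells to 369 in the Total B cell class. Ifnlr1, the specific chain of the type III receptor, was at 9.62 to 15.8 CPM in CD45 granulocytes and at 0.05 to 0.30 CPM in macrophages, with a log2 fold change of 6.95. Ifng, the type II ligand, had a median of 91.5 CPM in NK cells (7.49 to 558) and 51.9 in T cells (8.65 to 83.8).

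By count, 14 of 26 tested pathway genes were called higher and 8 lower in granulocytes over macrophages, against 35.1% and 42.4% of all genes. In T cells they were 8 and 13 of 26, against 38.8% and 39.8%, and in dendritic cells 7 and 8 of 25, near the 22.6% and 25.5% of all genes. For macrophages over tumour cells the counts were 23 and 6 of 31, against 37.8% each way. Tlr7 (6.51), Tlr9 (6.48) and Irf5 (4.91) were at the top there and Ifne (-3.43) at the bottom. For fibroblasts over tumour cells they were 12 and 2 of 23, against 26.6% and 30%. In granulocytes Tmem173 (STING, -1.99), Mavs (-2.21), Tlr9 (-2.14) and Tlr3 (-1.91) were called lower than in macrophages, while Tbk1 (1.58) and Jak1 (1.70) were called higher.

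Among the genes outside the set whose log2(CPM + 10) followed the mean of the set most closely, over 101 class sums and 7667 genes, were Sphk2 (Pearson r = 0.70), Tmbim6 (0.70), Myo1f (0.69), Lmnb1 (0.67), Abr (0.66), Entpd1 (0.66), Cd84 (0.65), Cd200r1 (0.65) and Trafd1 (0.65). The sums share libraries and tumours, so the values describe these sums only.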

How the data were processed

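Single-cell RNA sequencing libraries of 6 tumours were analysed, 1 Total and 1 CD45 library per tumour (12 libraries, 28083101 to 122055131 UMIs each). The authors deposited raw counts of UMIs for each gene in each cell, and the authors' deposited annotation gives each cell a class. Cell Ranger and mm10 are named in the submitters' processing notes, without versions. The labels' protocols name both a fixed-RNA kit and 3′ reagents, which leaves the chemistry unclear. The fewest genes in a cell ran from 200 to 650 between libraries, so the authors' filters differed.

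The 30 members and the lists of pathway and marker genes were chosen with earlier results of these data known. Likely doublets were called per library with Scrublet in scanpy 1.11.5 (expected 6%, 30 components, with 1 common limit) and left out. Counts were summed per class and library where a class had at least 10 cells and written as CPM. Tumours were compared by CPM + 10 (genes of at least 20 CPM in either tumour, 2-fold change), with exact Poisson 95% intervals for single genes. Intervals cover counting error only. Classes were compared with edgeR 4.0.16 (R 4.3.3): filterByExpr, TMM, quasi-likelihood test, tumour as block and Benjamini-Hochberg adjustment over all genes kept, called at an adjusted p under 0.05. The block comes from the labels, since both sums of a pair come from the same animal. Genes named in the text are the members, and the 10 genes most like their mean. The fits were tested on simulated counts. Alternatives were DESeq2 1.42.0, no low-count filter, no replicate block, all cells kept, each tumour left out, a pseudocount of 1, cells thinned to 500 UMIs and the Total libraries. Library totals without TMM and cells of at least 650 genes were added after the data had been seen. A planned comparison of plasmacytoid with other dendritic cells was not run, since no class has that name. Tables were handled with Python 3.11.15 and pandas 2.3.3. Results for some genes are not reported here.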

Additional observations from a re-analysis of the deposited data

How the results depend on the processing

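The tumour term is a replicate block, since paired sums come from the same animal. With no replicate block the members called higher fell to 0 (macrophages) and 6 (granulocytes) in CD45 over Total libraries, those called lower to 2 for fibroblasts over tumour cells and to 0 for granulocytes in CD45 over Total libraries, and no other count moved by over 1.5 times. With no low-count filter the counts that moved were 5 lower for granulocytes over macrophages, 3 higher and 10 lower for fibroblasts, 22 higher for macrophages and 0 lower for granulocytes in CD45 over Total libraries. DESeq2 gave 0 lower for the last. With library totals, an alternative chosen after seeing the data, the counts that moved were 8 lower for granulocytes over macrophages, 16 higher and 9 lower for T cells, 7 lower for macrophages over tumour cells, 3 higher and 14 lower for fibroblasts, 4 higher and 3 lower for macrophages and 8 higher and 2 lower for granulocytes in CD45 over Total libraries. The same totals turned Zbp1 (-0.25), Stat2 (-0.22) and Ifi35 (-0.38) in granulocytes over macrophages, and Trim30a (0.39) and Ifit2 (0.059) in T cells over macrophages. TMM centres most genes near no change and library totals do not, and which scaling is nearer the RNA content of the cells was not tested.

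When each tumour was left out in turn, the members called higher and lower ranged from 20 to 23 and 3 to 3 for granulocytes over macrophages, 5 to 8 and 7 to 10 for dendritic cells, 9 to 12 and 13 to 14 for T cells, 21 to 23 and 1 to 3 for macrophages over tumour cells, 5 to 8 and 2 to 6 for fibroblasts, and, in CD45 over Total libraries, 8 to 13 and 0 to 0 for macrophages and 15 to 19 and 0 to 1 for granulocytes. For granulocytes in CD45 over Total libraries, Bst2 was not called lower without EM1, EM2, M or 4T1.

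For the mean of the set, a pseudocount of 1 gave -0.378 (EM3 less E), 0.162 (M less E) and -0.375 (4T1 less M) in macrophages, -0.304 (M less E) and -0.682 (4T1 less M) in granulocytes, and -0.729, -0.204, -0.534 and -0.566 in tumour cells (EM3 less E, M less E, EM1 less EM2, 4T1 less M). Thinning to 500 UMIs gave -0.365, -0.0073 and -0.0953 in macrophages (EM3 less E, M less E, EM1 less EM2), -0.302 in granulocytes (M less E) and -0.386, -0.0704, -0.267 and -0.403 in tumour cells. The Total libraries gave 0.142, -0.0802 and -0.562 in macrophages (M less E, EM1 less EM2, 4T1 less M) and -0.249, -0.172, 0.445 and -0.774 in granulocytes (EM3 less E, M less E, EM1 less EM2, 4T1 less M). Cells of at least 650 genes, also chosen after seeing the data, gave 0.367 (EM1 less EM2) and -0.956 (4T1 less M) in granulocytes. All of these kept their direction but M less E in macrophages under thinning, and the cause of that turn was not tested. Depth limits the values of endothelial cells, NK cells, B cells and fibroblasts, and 1 tumour per clone gives no test between clones.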
